A study of Solanum lycopersicum with 6 samples.

Results

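The microRNA (miRNA) miR9474 of tomato (Solanum lycopersicum) was represented by 2 entries, sly-miR9474-5p and sly-miR9474-3p, of the 137 mature tomato miRNAs counted in small RNA libraries of green-stage fruit. The entries were taken by name, and the name was chosen by their counts in these libraries, as the strongest rise under drought, so the difference between drought and control is given below as a description with no test. In the control group, pots were given liquid fertilizer diluted 500-fold and then plain water on alternating days after flowering. In the drought group, the same diluted fertilizer was the only watering and was given a single time per week, so less water and less fertilizer cannot be told apart in this design. The greenhouse was at 25 °C for the 12 h of daily light and otherwise at 20 °C, and each group had 3 libraries. The labels give no cultivar or fruit age and do not say whether libraries came from separate plants, so the spread between libraries may be technical. The table counts miRNAs alone and holds no marker gene of fruit, so the tissue label was not checked.

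Plant miRNAs are cut by a Dicer-like enzyme from a hairpin precursor as a short duplex of 2 strands, the 5p arm from the 5′ side of the stem and the 3p arm from its 3′ side. Usually 1 strand is loaded into an Argonaute protein, where it guides cleavage or repression of mRNAs with a matching site, and the other, the passenger strand, is degraded. Both arms therefore come from a single transcript, while their levels also depend on which strand is loaded and kept. The files and the gene table used here assign miR9474 no target, and none is named here. The RefSeq gene table of assembly SLM_r2.1 lists 1 gene of this name, MIR9474. It overlaps 0 other listed genes and lies between the protein-coding genes LOC100736471 and LOC101253309.

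Libraries differed in size and in make-up. Totals over all entries ran from 644434 to 749332 counts in control and from 430732 to 468711 in drought. The scaling factors (TMM, which correct each total for the share taken by a few abundant entries) ran from 0.909 to 1.003 in control and were 0.848, 1.35 and 0.993 in drought libraries 1, 2 and 3. Drought library 2 thus stood apart from the other libraries in its scaling, and the main values of the 3p arm are also given without it. Levels are counts per 1e+06 counts of the scaled library (CPM), which compare 1 entry between libraries. In fruit tissue sequenced in bulk, more cells with the miRNA and more miRNA per cell cannot be told apart.

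The 5p arm was scarce in well-watered fruit and stood higher in every drought library. Control libraries 1, 2 and 3 held 11, 8 and 15 counts of sly-miR9474-5p, and drought libraries 1, 2 and 3 held 295, 243 and 148. On the scaled level these were 18.3, 12.4 and 20.8 CPM in control and 785, 384 and 346 CPM in drought. The groups did not overlap, and the lowest drought library stood 16.6-fold above the highest control library. The means were 17.1 ± 4.32 CPM in control and 505 ± 244 CPM in drought (SD, n = 3 each). The edgeR quasi-likelihood fit put the log2 fold change at 4.86 ± 0.55 (SE). The ratio of summed counts per summed scaled library size, which weighs libraries by size, was 27.7. Its exact 95% Poisson interval, given the total count, was 19.6 to 40.3. Such intervals cover counting error only and leave out variation between libraries. PCR copies are not marked, so even the counting error may be larger than shown. The fold change in the authors' deposited table was 29.4.

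The 3p arm was at the edge of detection in well-watered fruit. Control libraries 1, 2 and 3 held 1, 0 and 1 counts of sly-miR9474-3p, and drought libraries 1, 2 and 3 held 9, 79 and 17. In scaled CPM the drought libraries stood at 23.96, 125 and 39.7, and the control libraries at 1.66, 0 and 1.39. A count of 0 in control library 2 allows up to 3 counts, or 4.64 scaled CPM. Drought library 2 held most of the 3p counts, and again the groups did not overlap. The means were 1.02 ± 0.891 CPM in control and 62.8 ± 54.2 CPM in drought (SD, n = 3 each), and the drought mean was 31.8 CPM without library 2. The ratio of summed counts per summed scaled library size was 72.0, and the ratio of the 2 means was 61.8. The exact 95% Poisson interval of the first, 19.4 to 602, is wide because it rests on 2 control counts against 105 drought counts. Without drought library 2 the ratio of summed counts per summed scaled size was 31.9 (7.98 to 277), on 26 drought counts. The fitted log2 fold change was 5.71 ± 0.93 (SE), or 4.58 ± 0.95 without drought library 2. The fold change in the authors' deposited table was 55.2.

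**Figure D1:**
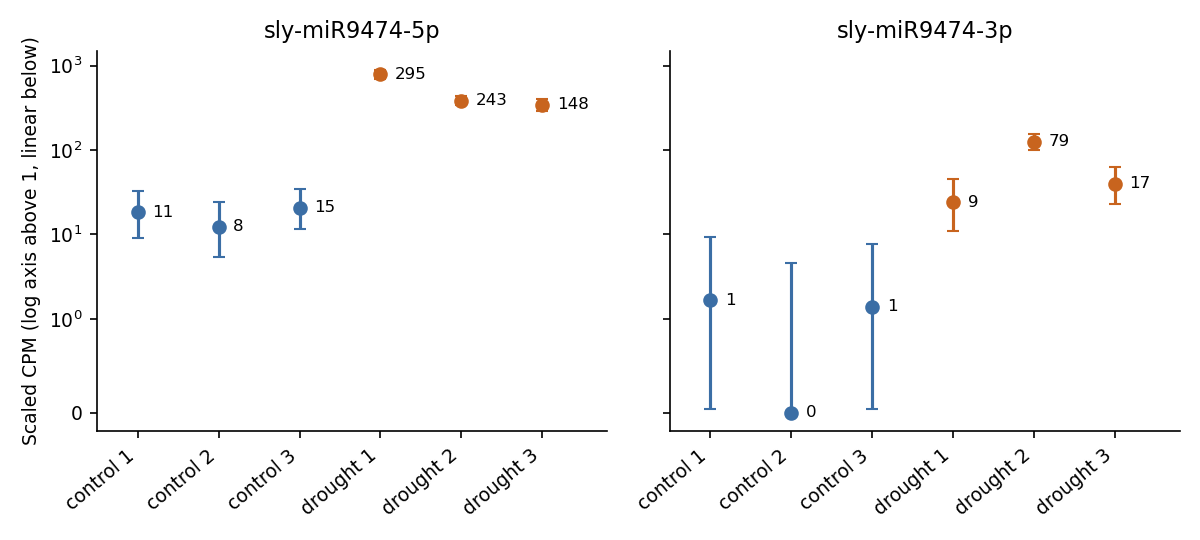
Scaled CPM of both miR9474 arms in each library, on an axis that is logarithmic above 1 and linear below. Points are single libraries labelled with their counts and bars are exact 95% Poisson intervals, or up to 3 counts for a count of 0 (counting error only). For the 5p arm all drought libraries lie between 346 and 785 CPM and all control libraries between 12.4 and 20.8 CPM.

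Both arms stood higher in all drought libraries than in all control libraries. That pattern was found in 18.2% of the 99 entries with enough counts to test, and since both arms were chosen by this contrast nothing is read from their count. Summed over both arms, miR9474 had 36 counts in control and 791 in drought. The summed level was 18.2 ± 5.14 CPM in control and 568 ± 218 CPM in drought (SD, n = 3 each), and its fitted log2 fold change was 4.95 ± 0.52 (SE). The choice of scaling moved the whole table by far less. Over the 99 tested entries the median change was 0.16 on the log2 scale with TMM, 0.27 with unscaled totals and 0.40 with upper-quartile scaling.

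Places within a library need no scaling, but they come from the same counts by which miR9474 was chosen. They are given as a description and add no independent evidence. The 5p arm was the entry in place 96, 99 and 95 of 137 by count in control libraries 1, 2 and 3, and in place 43, 50 and 58 in drought libraries 1, 2 and 3. By group mean of scaled CPM the 5p arm moved from place 97 to place 48, and the 3p arm from place 123 to place 81, or 96 without drought library 2. With all libraries these were the 2 longest climbs among the tested entries, 49 and 42 places. The next were miR171b-5p with 27 places, miR394-5p with 24 and miR399 with 21. Even in drought fruit miR9474-5p was a minor part of the miRNA pool: it made up 0.0666%, 0.0518% and 0.0344% of all counts in drought libraries 1, 2 and 3, against 0.0012% to 0.0020% in control.

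By fitted log2 fold change the 3p arm was first and the 5p arm second of the tested entries. Without drought library 2 the order turned, with the 5p arm first at 4.97, then miR171b-5p at 4.81 and then the 3p arm at 4.58. With all libraries the entry that followed the arms was miR171b-5p, an arm of a family whose main strand targets GRAS transcription factors. Its log2 fold change was 4.49 ± 0.85 (SE) and it rested on control counts of 2, 1 and 0. The fourth was miR394-5p, of a family known for targeting an F-box gene, at 2.12 ± 0.51. Among these first 4, sly-miR9474-5p and miR394-5p had more than 3 counts in each control library. The places of the miR9474 arms follow from their choice by this contrast and add no independent evidence.

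**Figure D2:**
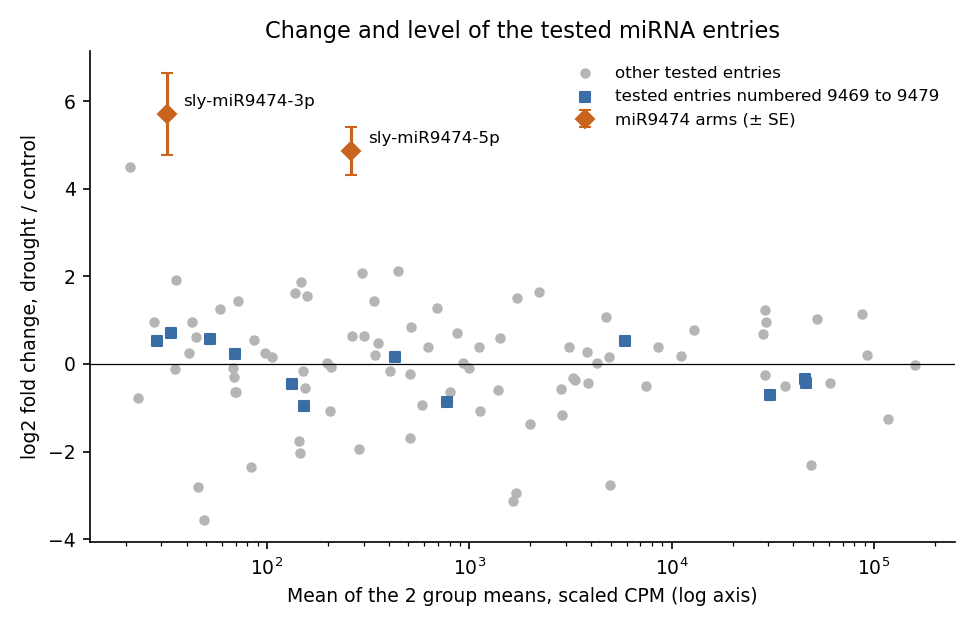
Log2 fold change between drought and control against the mean level (scaled CPM, log axis) for the 99 tested entries. Diamonds are the miR9474 arms with SE, at 4.86 and 5.71. Squares are the tested entries numbered miR9469 to miR9479, which lie between -0.97 and 0.70.

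Within the drought group the arms varied in different ways. The 5p arm was highest in drought library 1 and lowest in drought library 3, a 2.27-fold range. The 3p arm was highest in drought library 2 and lowest in drought library 1, a 5.21-fold range that was 1.66-fold without library 2. The SD of log2 CPM over the drought libraries was 0.64 for the 5p arm and 1.14 for the 3p arm, beside a median of 0.54 over the tested entries, and 10 of the 99 had a larger SD than the 3p arm. In control the SD was 0.32 and 0.30, beside a median of 0.38, although control values of the 3p arm rest on 0 or 1 count and are compressed by the prior count of 2.

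The 3p arm was the minor arm, and its share of the miR9474 counts was lowest in drought library 1 and highest in drought library 2. It made up 9 of 304 counts in drought library 1, or 2.96% (exact Clopper-Pearson 95% interval 1.36% to 5.55%). In drought library 2 it made up 79 of 322 counts, or 24.5% (19.9% to 29.6%), and in drought library 3, 17 of 165 counts, or 10.3% (6.12% to 15.98%). These intervals cover the counting of reads in 1 library each and compare libraries, not conditions. In control the share was 2 of 36 summed counts, or 5.56% (0.680% to 18.7%), against 13.3% (10.99% to 15.8%) of the summed drought counts. The control share rests on 2 counts of the 3p arm, and the drought libraries ran from 2.96% to 24.5%. A difference in arm share between the groups was therefore not tested. Without drought library 2 the summed drought share was 5.54%.

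Minor-arm shares of other precursors varied between the drought libraries too, mostly in another order. Both arms were tested for 19 precursors. The minor arm was the one with fewer counts summed over all 6 libraries, so it could be the larger arm in a single library. For miR9474 the highest drought share of the minor arm was 8.29 times the lowest, beside a median of 2.01 over the other 18, of which 0 had a larger ratio. That ratio depends on a low share that rests on 9 counts. In percentage points the drought range of miR9474 was 21.6. Wider ranges were those of miR167b (50.0, with 1 count in drought library 1), miR396a (47.9), miR166c (35.0), miR171b (31.5), miR477 (24.2) and miR403 (22.7). The remaining precursors had narrower ranges. Without drought library 2 the ratio was 3.48 for miR9474, close to 3.20 for miR9471a, beside a median of 1.35 over the other 18. Of the other 18, 10 had their highest share in drought library 1, where that of miR9474 was lowest, and 3 had it in drought library 2. Summed over those 18, the minor arms made up 42.0%, 10.1% and 24.6% of the counts in drought libraries 1, 2 and 3. The same sum in control ran from 14.5% to 15.3%. Abundant precursors weigh most in it. The most abundant of them was miR396a, whose family is known for targeting growth-regulating factors, with a minor-arm share of 27.2% to 75.1% in drought. The highest of these shares was in drought library 1, where that arm held 30112 of the 46942 minor-arm counts in the sum. The next most abundant precursor, miR9471a, had a minor-arm share of 0.104% to 0.332% in drought. Whether the make-up of these libraries bears on the arm share of miR9474 was not tested.

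**Figure D3:**
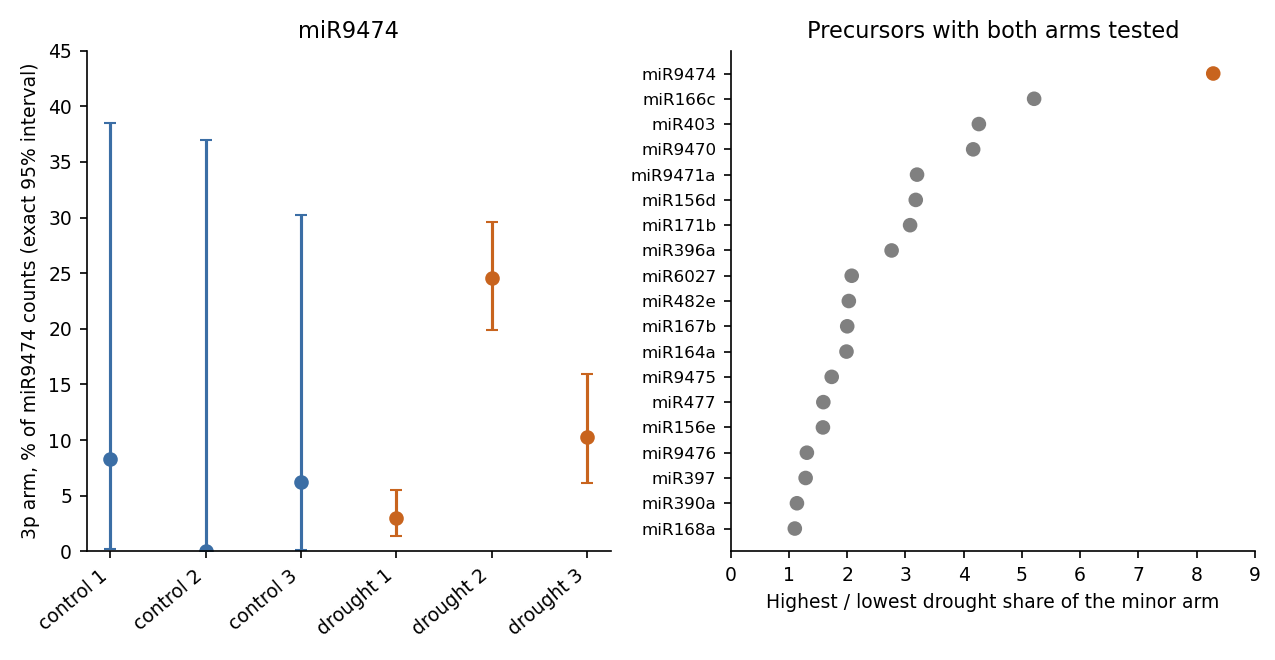
Left, share of the 3p arm in the miR9474 counts of each library, in percent, with exact 95% binomial intervals (counting error only). Right, the highest drought share of the minor arm divided by the lowest, for the 19 precursors with both arms tested. miR9474 stands at 8.29 on the right, and its drought shares on the left are 2.96%, 24.5% and 10.3%. In percentage points its drought range is 21.6, narrower than that of miR396a (47.9), among others.

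The arms' own log2 fold changes lay 0.85 apart. Both arms were counted in the same libraries, and no error was computed for this difference. The 3p value was the larger one in 12 of 13 other settings, and without drought library 2 it was smaller by 0.39 (a difference of -0.39). Among the other 18 precursors the median distance between the arms' log2 fold changes was 0.55, and 5 lay farther apart than miR9474. The arms lay farthest apart for miR171b (4.49 for the 5p arm and 1.25 for the 3p arm) and for miR482e, whose family is known for targeting NB-LRR resistance genes (1.51 and -0.25). For the abundant miR396a the values were -0.50 and 1.24, and for miR9471a 0.23 and -0.44. In 13 of the 18 both arms had the same sign, positive in 5 and negative in 8.

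Entries with a pattern most like the arms were found by the root-mean-square difference of centred log2 CPM over all 6 libraries, a measure that also uses the drought rise and, for the 3p arm, the high value of drought library 2. For the 5p arm the nearest was miR171b-5p at 0.98, followed by miR399, of the family that targets the ubiquitin-conjugating enzyme PHO2, at 1.47 and miR394-5p at 1.49, beside a median of 2.32 over the others. Its own 3p arm stood at 1.06. For the 3p arm the nearest was miR394-5p at 0.84, followed by miR1918 at 1.21 and miR171b-5p at 1.25, beside a median of 1.98.

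The 3p arm and miR394-5p shared the high value of drought library 2. miR394-5p stood at 426, 1223 and 519 CPM in drought libraries 1, 2 and 3 and at 238, 118 and 144 CPM in control libraries 1, 2 and 3. The order of the drought libraries was that of the 3p arm. For the 3p arm that order is clear of counting error only in library 2 being highest. Its 95% counting intervals in libraries 1 and 3 overlap (10.96 to 45.5 and 23.1 to 63.6 CPM). Of the 99 tested entries, 13 besides the 3p arm had this order, miR394-5p among them. The 5p arm's order, with library 1 highest and library 3 lowest, was found in 11 others of the 99, so neither order was particular to miR9474. miR171b-5p had counts of 21, 10 and 21 in drought, so it was lowest in drought library 2, unlike either arm of miR9474. miR399, which is known to rise when phosphate is short, stood at 383, 317 and 736 CPM in drought, highest in library 3. The 5p arm was lowest there, but its 95% counting intervals in libraries 2 and 3 overlap (337 to 435 and 292 to 406 CPM).

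**Figure D4:**
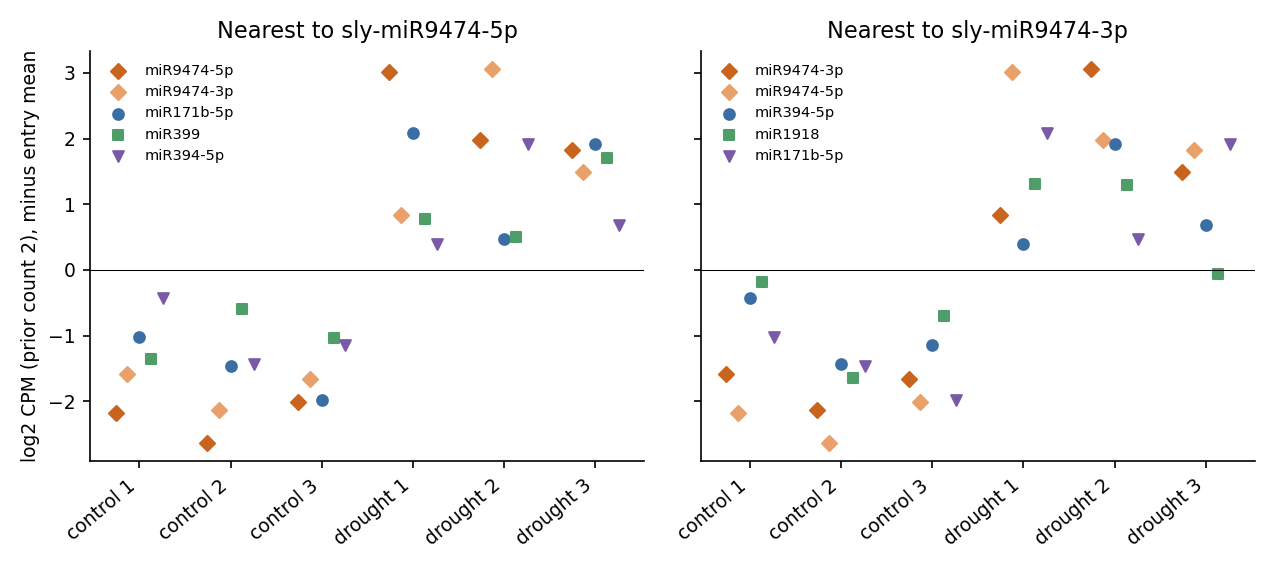
Log2 CPM (edgeR, prior count 2), minus the mean of each entry, in the 6 libraries for both miR9474 arms and the 3 entries nearest to each arm. In drought library 2 the 3p arm and miR394-5p are at their highest, and miR171b-5p is at its lowest of the drought libraries.

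Of the entries that carry numbers close to miR9474, none passed the test in either direction with all libraries. Names from miR9469 to miR9479 other than miR9474 covered 22 entries of 11 precursors, of which 12 had enough counts to test. The number says only that the names were given in sequence and implies no shared function. Of the 12, 0 were higher and 0 lower in drought at an adjusted p under 0.05 (edgeR quasi-likelihood test with Benjamini-Hochberg adjustment over all 99 entries), 0 had an unadjusted p under 0.05 and 0 passed with DESeq2. Over all tested entries 9.09% passed as higher and 11.1% as lower, 34.3% had an unadjusted p under 0.05 and 26.3% passed with DESeq2. The median log2 fold change of the 12 was -0.09, beside 0.16 over all tested entries, with values from -0.97 to 0.70.

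The 3 entries of that range with the highest mean level were all 3p arms, and each had a lower mean in drought without passing the test. sly-miR9471a-3p stood at 52839 ± 2431 CPM in control and 39075 ± 19436 CPM in drought (SD, n = 3 each), and its log2 fold change was -0.44 ± 0.38 (SE). sly-miR9471b-3p stood at 51068 ± 15329 and 39972 ± 3220 CPM (-0.35 ± 0.32), and reads of these closely related names may have been traded between them. sly-miR9470-3p stood at 38027 ± 10648 and 23286 ± 10459 CPM (-0.71 ± 0.39). Without drought library 2, 3 of the 12 were lower in drought, where 20.2% of all tested entries were, a share near that of the 12. These were sly-miR9470-3p (log2 fold change -1.24 ± 0.39, edgeR adjusted p = 0.00583), sly-miR9473-5p (-1.55 ± 0.54, adjusted p = 0.0131) and sly-miR9471a-3p (-1.02 ± 0.39, adjusted p = 0.0251). The 10 entries of that range left untested had at most 35 counts over all libraries.

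The 5p arm's difference between groups moved little with the setting, and the 3p arm's moved more. The log2 fold change of the 5p arm ran from 4.39 without drought library 1 to 5.11 without control library 3, or 21.0-fold to 34.6-fold. That of the 3p arm ran from 4.58 without drought library 2 to 6.19 without control library 3, or 23.98-fold to 73.0-fold. Control library 3 held 15 of the 34 control counts of the 5p arm.

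**Figure D5:**
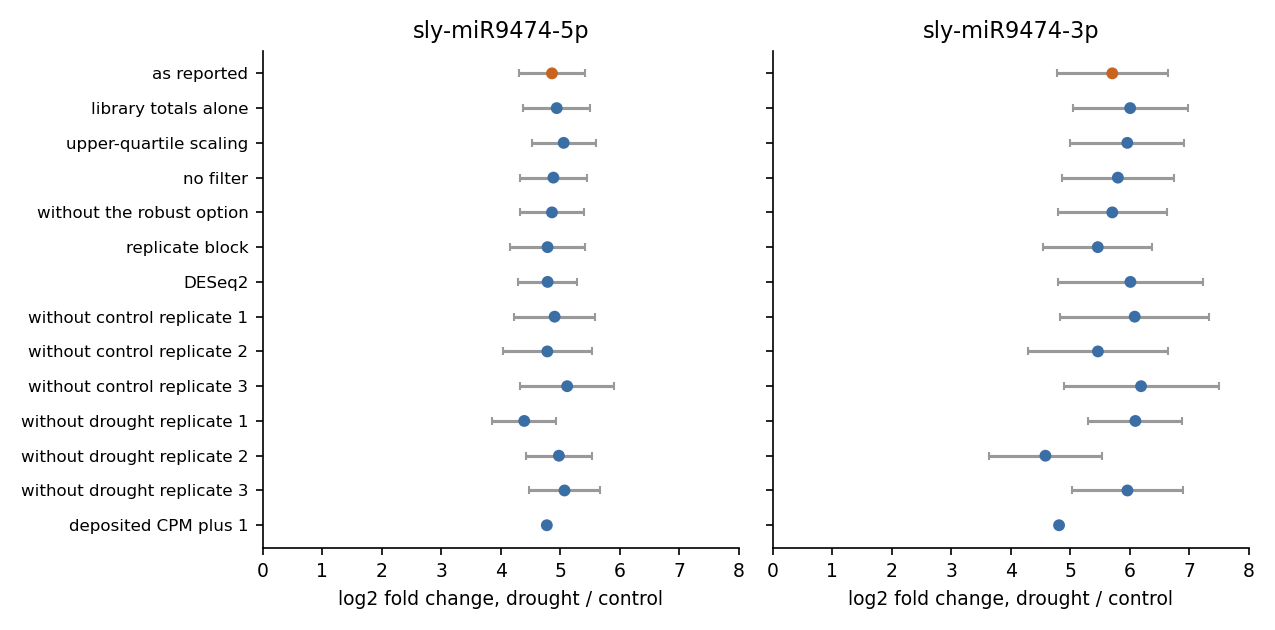
Log2 fold change between drought and control of each miR9474 arm as reported and in 13 other settings. Bars are SE and the value from deposited CPM plus 1 has none. The 5p arm lies between 4.39 and 5.11 and the 3p arm between 4.58 and 6.19.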

How the data were processed

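Per the labels' protocols, 240 ng of total RNA went into each small RNA library (NEBNext Multiplex kit, which ligates adapters). The authors deposited 1 table for 137 miRNAs in 6 libraries, whose whole-number counts carry no normalization per the file headers. The deposited CPM columns rest on rescaled library sizes, from 0.880 (drought library 1) to 1.22 (drought library 2) times the total counts (median over entries). They were handled as a signal, since some sum to over 1e+06, and the authors' deposited signed fold change as a score. The aligner, the miRNA release and the genome build were not given in the sources used here, and no mature sequence was used here.

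The counts entered a robust quasi-likelihood fit of edgeR 4.0.16 under R 4.3.3 (TMM, group as the only term) over the 99 entries kept by filterByExpr (minimum count 10, minimum total 15), which held 99.98% of counts. Adjusted p under 0.05 counted as passing. The SE is the log2 fold change divided by the square root of F. The code was tested on simulated data. Alternatives were DESeq2 1.42.0, other scaling, no filter, a replicate block and each library left out. Levels, ratios, places and arm shares without drought library 2 were added after the data were seen. No libraries agreed within sampling noise (chi-square per degree of freedom at least 50.1, entries with at least 20 counts). Same-numbered libraries did not deviate together (correlations 0.10, -0.24 and 0.01), so numbers were not treated as pairs.

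Members and lists were chosen with earlier results of these data known. Named were both arms, the 3 entries nearest to each arm (the other arm given beside them), the 3 most abundant entries of the number range and any that passed, and 4 precursors for the arms: the 2 with arms farthest apart and the 2 most abundant. Entries next in fold change or places climbed were added after their values were seen. A planned search for shared seeds was not run, as it needs mature sequences.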

Additional observations from a re-analysis of the deposited data

How the results depend on the processing

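The log2 fold changes of miR9474-5p (13 settings) and of both arms summed (12 settings) moved by less than the spread between libraries in every setting. With 1 library left out they ran from 4.39 to 5.11 and from 4.62 to 5.23. That of miR9474-3p, 5.71, ran from 4.58 (without drought replicate 2) to 6.19 with 1 library left out, and was 4.81 from deposited CPM plus 1, where a pseudocount of 1 is as large as the control values. The share of the 3p arm in drought, 13.3%, was 12.6% as the mean of the 3 shares and ran from 5.54% to 19.7% with 1 drought library left out. With the replicate block the log2 fold changes were 4.78 (5p), 5.46 (3p) and 4.92 (summed).

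Counts over all tested entries moved more. The 9 higher in drought became 16 on unscaled totals, 16 on upper-quartile scaling and 5 with the replicate block, and 4 to 19 with 1 library left out. The 11 lower in drought became 7 with the replicate block and 5 to 20 with 1 library left out. Of the entries numbered miR9469 to miR9479, 0 passed in each setting except without drought replicate 2, where 3 did (range 0 to 3). The cause was not tested. Depth limits the 3p arm, with 2 control counts in all, and the arm share in control.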
